A study of Mus musculus with 6 samples.

Results

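The 7 genes described here encode the subunits of the NMDA receptor: Grin1, Grin2a, Grin2b, Grin2c, Grin2d, Grin3a and Grin3b. They were chosen by name, as the rows of the deposited table of counts that the GRCm38 annotation gives these symbols, and are 7 of 53421 genes in the table. All 7 passed the filter on low counts, which left 17214 genes. The RNA came from cerebellar granule cells (GCs) of C57BL/6 mouse pups, given as postnatal day 8 in the labels and as P6 to P8 in the study's methods. The cells were grown in culture, infected with a lentiviral hairpin RNA, and selected with puromycin. The hairpin targeted Ythdf2 in 3 libraries (shYthdf2) and served as control in the other 3 (shCtrl). Both groups thus share the culture, the virus and the selection. The library names carry 1 of the hairpin numbers of the study's methods, so the knockdown (KD) appears to rest on 1 hairpin, and the cultures were not sorted. The question of the comparison was which mRNAs differ when the m6A reader YTHDF2 is reduced.

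Which 3 libraries are the KD is not settled by the labels: the titles and genotype entries give the groups in the opposite way to the library names. The names were followed here. If the titles are right, every direction below turns round. Ythdf2 itself had 501, 402 and 501 normalized counts in the libraries named shYthdf2 (replicates 1, 2 and 4) and 618, 841 and 628 in those named shCtrl. The groups did not overlap, and 67.3% of the shCtrl mean remained (log2 fold change -0.57, SE 0.16; -0.32 without both replicate 2 libraries). The adjusted p was 0.125 by edgeR's quasi-likelihood test (adjusted after Benjamini-Hochberg over all genes tested). The libraries held 17246821 to 21546595 counts. Replicates 1 and 4 lay close to each other in both groups and replicate 2 stood apart: the chi-square per degree of freedom over genes was 3.34 (shYthdf2) and 4.64 (shCtrl) between replicates 1 and 4, and 32.9 to 54.8 between replicate 2 and either of them. Results that rest on replicate 2 are given with and without it. The study's methods call the 3 libraries of a group biological replicates. The sources used here do not give which libraries share a culture, litter or day, and the p-values measure the spread between these libraries.

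NMDA receptors are glutamate-gated channels that pass calcium and open only when glutamate and a co-agonist, glycine or D-serine, are bound and depolarization has relieved the magnesium block. Every receptor holds GluN1, the product of Grin1, with GluN2 subunits (GluN2A to GluN2D, from Grin2a to Grin2d) or GluN3 subunits (Grin3a, Grin3b), and the GluN2 subunit sets how long the channel stays open and how strongly magnesium blocks it. Young GCs mainly use GluN2B, and as they mature and receive mossy fiber input they replace it by GluN2A and by GluN2C, which is typical of cerebellar GCs. YTHDF2 is known to bind mRNAs that carry N6-methyladenosine (m6A) and to bring them to decay. m6A sits in a short sequence context, of which GGACT is a common form, and is frequent near stop codons.

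The GGACT sites near the stop codons are shown as some of the places in the subunit mRNAs where such a mark could lie. Sites farther from the stop codon or of another sequence form are not listed, so a gene without a site here may still carry the mark. No m6A was measured in these libraries. On the mRNA strand, within 200 bases on either side of the end of the stop codon in the longest protein-coding transcript with a complete coding sequence, 1 site was found in each of 4 subunit genes and 0 in Grin1 and Grin2a. The window was not complete in Grin3b. Of the 12303 tested genes with a complete window, 41.0% held at least 1 such site. Each line gives the 21 bases around a site, 5′ to 3′ on the mRNA, from GRCm38, and capitals mark the motif, whose central A gives the distance.
Grin2b, chr6:135732284-135732304 (minus strand), coding part of exon 14 of 14, 196 bases before the end of the stop codon: acaaggccGGACTtccgggcc
Grin2c, chr11:115249533-115249553 (minus strand), 3′ UTR in exon 15 of 15, 28 bases after it: ttcctgctGGACTggattctg
Grin2d, chr7:45832585-45832605 (minus strand), 3′ UTR in exon 12 of 12, 185 bases after it: gccagaggGGACTcggtcgcc
Grin3a, chr4:49665230-49665250 (minus strand), coding part of exon 9 of 9, 14 bases before it: gacgaaccGGACTtgtgaatc
Over whole transcripts, Grin2a held the most GGACT sites per kb among the subunits (22 sites, 1.5 per kb) and Grin2b the fewest (16 sites, 0.67 per kb), with a median of 1.05 per kb over all genes with a complete window. A match is a description of the letters only.

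None of the 7 subunit genes passed an adjusted p of 0.05 by edgeR's quasi-likelihood test (0 of 7), where 0.604% of all genes tested passed. At an unadjusted p under 0.05 there was 1 of 7, Grin2b, where 20.1% of all genes passed. After adjustment, limma-voom called 0 of 7, beside 24 of all 17214 genes. DESeq2 called 1 of 7 (Grin2b), beside 8.88% of the genes it gave an adjusted p. The groups did not overlap for 1 of 7, again Grin2b and higher after KD, beside 12.6% of all genes higher without overlap. Mean levels were higher after KD for Grin2b, Grin2c, Grin2d and Grin3a and lower for Grin1, Grin2a and Grin3b. The median log2 fold change of the 7 genes was 0.30, and that of all genes tested was 0.01. Without both replicate 2 libraries, 5 of 7 passed the adjusted threshold (Grin2a and Grin3b did not), beside 52.7% of all genes.

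**Figure D1:**
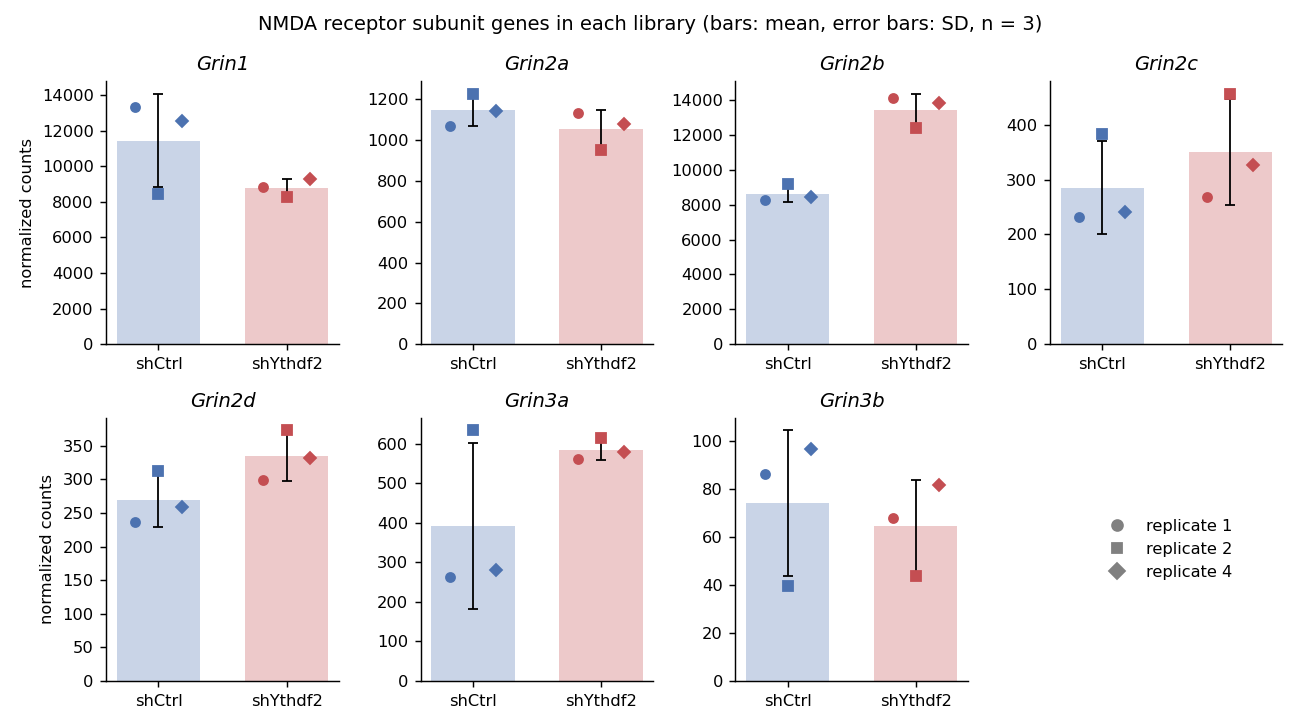
Normalized counts (vertical axes, from 0) of the 7 NMDA receptor subunit genes in each of 6 libraries, with bars for the group mean and error bars for the SD (n = 3); marker shapes give the replicate number. Only Grin2b separates the groups, with 12386 to 14110 normalized counts after KD and 8251 to 9156 in shCtrl.

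Grin2b (ENSMUSG00000030209, chromosome 6 from 135713233 to 136173511 on the minus strand) encodes GluN2B, the subunit of young GCs. It had 14110, 12386 and 13825 normalized counts in shYthdf2 replicates 1, 2 and 4, and 8251, 9156 and 8463 in shCtrl. The lowest KD library stood above the highest control library. The mean was 155.9% of shCtrl (13441 ± 924 against 8624 ± 473, SD, n = 3 each), a log2 fold change of 0.64 (SE 0.10). The adjusted p was 0.0508 by edgeR's quasi-likelihood test, just above the threshold, and the two-sided exact permutation p was 0.1, the smallest that 3 against 3 libraries can give. Within replicate numbers, KD was higher by 0.77, 0.44 and 0.71 on the log2 scale, in 3 of 3 pairs. How many of all genes agree in 3 of 3 pairs is not given here, so such agreement does not set a gene apart. With the replicate number as a block the adjusted p was 0.0496, past the threshold, where 1.35% of all genes passed and Grin2b was 1 of 7. Leaving out shCtrl replicate 2 gave an adjusted p of 0.00530 (18.3% of all genes passed), leaving out shYthdf2 replicate 2 gave 0.0289 (4.7%), and over all 15 alternatives the log2 fold change stayed between 0.60 and 0.74 with an adjusted p from 6.45e-11 to 0.286.

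Grin1 (ENSMUSG00000026959, chromosome 2 from 25291181 to 25319187 on the minus strand) encodes GluN1, the subunit that every NMDA receptor needs. It had 8837, 8244 and 9253 normalized counts after KD and 13343, 8431 and 12544 in shCtrl. The control libraries fell apart: replicate 2 lay among the KD libraries, at 0.651 of the mean of replicates 1 and 4, so that the groups overlapped. The KD mean was 76.7% of shCtrl (log2 fold change -0.38, SE 0.18, adjusted p = 0.277 by edgeR's quasi-likelihood test). Within replicate numbers the difference was -0.59, -0.03 and -0.44 on the log2 scale. Without shCtrl replicate 2, the log2 fold change was -0.56 with an adjusted p of 0.00812, in a fit where 18.3% of all genes passed. Over the alternatives the adjusted p went from 1.59e-08, without both replicate 2 libraries (52.7% of all genes passed), to 0.625. Thus 1 control library decided whether Grin1 passed. The summed normalized counts of 9 calcium-induced immediate-early genes moved with this: they were 50765, 12572 and 49607 in shCtrl replicates 1, 2 and 4, and 5175, 3005 and 5197 after KD. Their part in the Grin1 values was not tested. Counts of the antisense gene Grin1os, which covers 13.5% of the exon bases of Grin1, were 267 to 740 against 8452 to 15042 for Grin1, and no source gives the strandedness of the counting.

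Grin2a (ENSMUSG00000059003, chromosome 16 from 9567898 to 9995560 on the minus strand) encodes GluN2A, which joins receptors as synapses mature. It had 1136, 950 and 1078 normalized counts after KD and 1071, 1228 and 1145 in shCtrl. The groups overlapped, with shYthdf2 replicate 1 inside the control range, and the log2 fold change was -0.12 (SE 0.11). The adjusted p was 0.582 by edgeR's quasi-likelihood test, and it was between 0.352 and 0.964 over the alternatives. Grin2a was thus the subunit gene with the smallest difference, while Grin2b stood at the other end.

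Grin2c (ENSMUSG00000020734, chromosome 11 from 115249169 to 115267243 on the minus strand) encodes GluN2C, the subunit of mature GCs. It had 268, 457 and 326 normalized counts after KD and 232, 384 and 241 in shCtrl. Replicate 2 was the highest library of both groups, at 1.54 and 1.63 times the mean of replicates 1 and 4, and this gap was larger than the difference between groups. The log2 fold change was 0.30 (SE 0.27) with an adjusted p of 0.584 by edgeR's quasi-likelihood test, and the differences within replicate numbers were 0.21, 0.25 and 0.44. KD was higher in 3 of 3 pairs, and the block gave an adjusted p of 0.132. Gabra6, the GABA-A receptor subunit that marks mature GCs, had the same high replicate 2, with 518, 1357 and 552 normalized counts after KD and 432, 1209 and 408 in shCtrl.

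Grin2d (ENSMUSG00000002771, chromosome 7 from 45831883 to 45878378 on the minus strand) encodes GluN2D, a subunit of slow channels that is found in young brain and in interneurons. It had 299, 373 and 332 normalized counts after KD and 236, 313 and 259 in shCtrl. Only shCtrl replicate 2 reached into the KD range. The log2 fold change was 0.31 (SE 0.16, adjusted p = 0.326 by edgeR's quasi-likelihood test), and KD was higher in 3 of 3 pairs, by 0.34, 0.25 and 0.36. Beside Grin2b and Grin2d, the summed markers of GABAergic interneurons and Golgi cells (7 of 7 tested) were higher after KD without overlap, at 12240, 14732 and 12237 normalized counts against 8711, 11089 and 8496, and 6 of the 7 had a higher mean. One of them, Gad1, passed with the replicate block (adjusted p = 0.0450 by edgeR's quasi-likelihood test; 0.0876 without it). Their part in the values of these genes was not tested. In whole cultures, fewer cells of a type and less RNA per cell cannot be told apart.

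**Figure D2:**
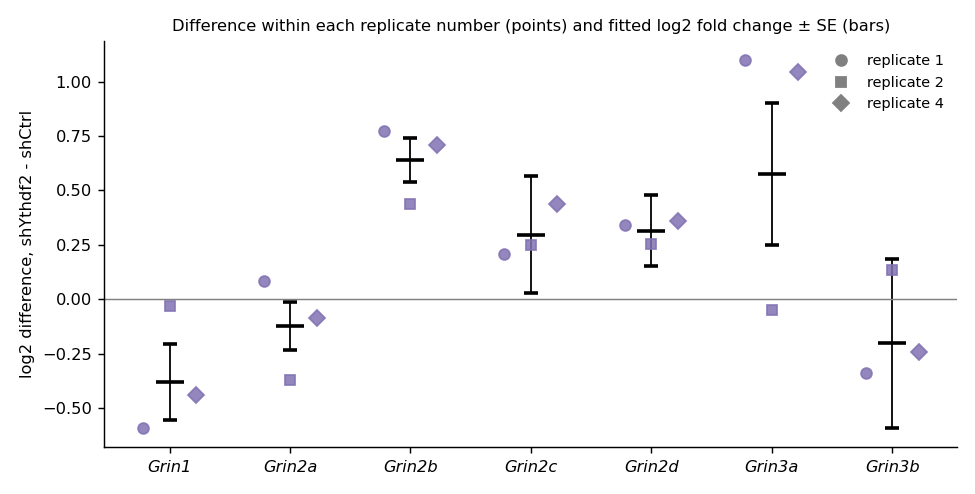
Difference in log2 normalized counts between shYthdf2 and shCtrl within each replicate number (points) and the log2 fold change fitted over all 6 libraries with its SE (bars), for the 7 subunit genes. Grin2b, Grin2c and Grin2d lie above 0 in all pairs, whereas the pair of replicate 2 lies near 0 for Grin1 (-0.03) and Grin3a (-0.05), far from the other two pairs.

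Grin3a (ENSMUSG00000039579, chromosome 4 from 49661611 to 49845744 on the minus strand) encodes GluN3A, a subunit of juvenile synapses that lowers calcium entry. It had 561, 613 and 577 normalized counts after KD and 262, 634 and 280 in shCtrl. The KD libraries lay close together, while shCtrl replicate 2 was at 2.34 times the mean of the other control libraries and above every KD library. The log2 fold change was 0.58 (SE 0.33, adjusted p = 0.369 by edgeR's quasi-likelihood test), with differences of 1.10, -0.05 and 1.04 within replicate numbers. Without shCtrl replicate 2 the log2 fold change was 1.11 with an adjusted p of 0.00247, in a fit where 18.3% of all genes passed. Over the alternatives the adjusted p went from 3.71e-08, without both replicate 2 libraries (52.7% of all genes passed), to 0.707. Thus shCtrl replicate 2 decided whether Grin3a passed. Summed glial markers were also highest in replicate 2 among the shCtrl libraries. Those of the oligodendrocyte lineage (8 of 8 tested) were 5016, 16685 and 4785 normalized counts in shCtrl and 12921, 16946 and 13286 after KD, and those of astrocytes and Bergmann glia (8 of 8 tested) were 6011, 14083 and 6100 in shCtrl and 13398, 12192 and 13339 after KD. Their part in the Grin3a values was not tested.

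Grin3b (ENSMUSG00000035745, chromosome 10 from 79970715 to 79977190 on the plus strand) encodes GluN3B, which is best known from motor neurons. It was the lowest subunit gene, with 41 to 97 counts per library. Its normalized counts were 68.0, 43.6 and 81.7 after KD and 86.0, 39.7 and 96.7 in shCtrl, with replicate 2 lowest in both groups. The log2 fold change was -0.20 (SE 0.39, adjusted p = 0.806 by edgeR's quasi-likelihood test), and the direction was not stable (0.02 without shYthdf2 replicate 2, or without shCtrl replicate 4). Tmem259, on the other strand, covers 32.1% of the exon bases of Grin3b and had 3293 to 6319 counts, so without a stated strand the counts of Grin3b are uncertain.

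The balance of Grin2b to Grin2c, which follows GC maturation, was computed within each library as the ratio of counts per kb of merged exons, so that no scaling between libraries enters. It was 10.7, 5.50 and 8.60 in shYthdf2 replicates 1, 2 and 4, and 7.23, 4.84 and 7.13 in shCtrl. The groups overlapped, because replicate 2 had the lowest ratio in both, and the mean log2 ratio differed by 0.34 (2.99 ± 0.49 against 2.65 ± 0.33, SD, n = 3, two-sided exact permutation p = 0.4). Within replicate numbers the ratio was higher after KD in 3 of 3 pairs, by 0.56, 0.18 and 0.27 on the log2 scale, which gives the smallest sign-flip p of this design, 0.25 (exact test). With 1 library left out, the difference lay between 0.13 and 0.61, the lower end without shYthdf2 replicate 1, and it was 0.42 without both replicate 2 libraries. Neither test can reach 0.05 with this number of libraries, so these p-values do not settle whether the balance shifted.

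The balance of Grin2b to Grin2a, the other exchange of maturing synapses, separated the groups. The ratio of counts per kb was 8.97, 9.41 and 9.26 after KD and 5.56, 5.38 and 5.34 in shCtrl. In both groups the 3 libraries, replicate 2 included, lay close together. The mean log2 ratio was higher by 0.76 after KD (3.20 ± 0.04 against 2.44 ± 0.03, SD, n = 3), which is many times the spread within a group, and the two-sided exact permutation p was 0.1, the smallest possible. The difference was 0.69, 0.81 and 0.79 within replicate numbers and between 0.74 and 0.78 over 9 alternatives.

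The summed GluN2 genes (Grin2a to Grin2d) per Grin1, that is, the partners over the obligate subunit, also did not overlap between groups. The ratio of counts per kb of merged exons was 0.801, 0.822 and 0.767 after KD and 0.344, 0.645 and 0.380 in shCtrl. The control libraries were spread, with replicate 2 nearest to the KD libraries. The mean log2 ratio was higher by 0.86 after KD (two-sided exact permutation p = 0.1, the smallest possible), by 1.22, 0.35 and 1.01 within replicate numbers and by 0.69 to 1.14 with 1 library left out, the upper end without shCtrl replicate 2. The level of this ratio depended on the length used. With the longest transcripts it was 0.374, 0.385 and 0.359 after KD and 0.162, 0.305 and 0.180 in shCtrl, again without overlap. These 3 balances share the counts of Grin2b and are not independent of each other or of its log2 fold change.

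**Figure D3:**
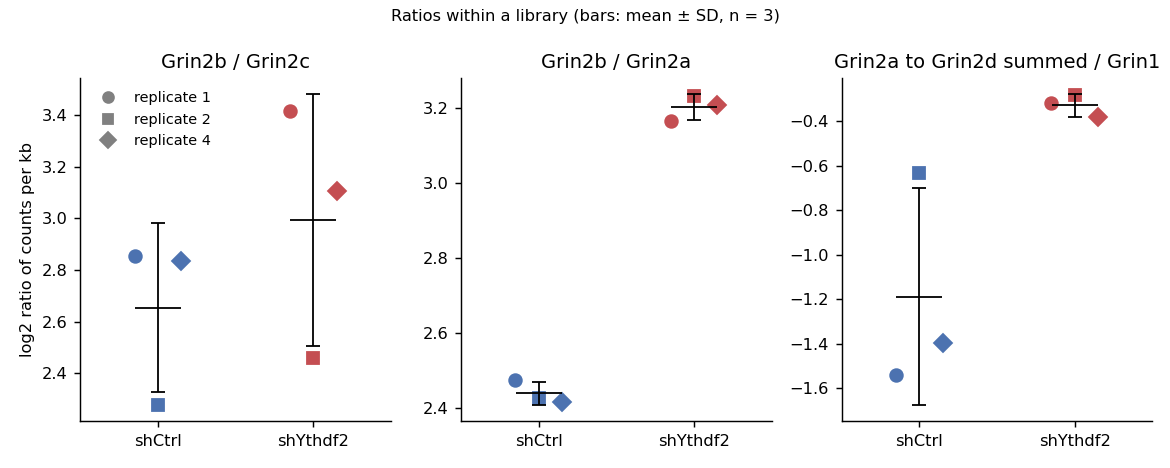
Log2 ratios of counts per kb within each library (points, shaped by replicate number) with mean and SD of the group (bars, n = 3), for Grin2b over Grin2c, Grin2b over Grin2a and the summed GluN2 genes over Grin1; the vertical axes do not start at 0 and differ between panels. The groups overlap for the first ratio and lie apart for the other two, by 0.76 and 0.86 on average.

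As shares of the 4 GluN2 mRNAs per kb, Grin2b held 77.9%, 71.4% and 76.1% after KD and 70.2%, 65.8% and 69.4% in shCtrl. The mean share was 75.1% ± 3.35 against 68.4% ± 2.33 (SD, n = 3), and the groups did not overlap (two-sided exact permutation p = 0.1, as for Grin2a). Grin2a made up 8.16% ± 0.55 after KD and 12.6% ± 0.38 in shCtrl, also without overlap. Grin2c held 9.70% ± 2.94 and 11.0% ± 2.24, and Grin2d 7.0% ± 0.95 and 7.93% ± 0.45, with overlap for both (exact permutation p = 0.5 and 0.3). GluN2B mRNA was thus the main GluN2 mRNA in all 6 libraries. With the length of the longest transcript in place of merged exons, the shares of Grin2b were 73.1% and 65.9%, and the groups again lay apart for Grin2a and Grin2b.

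**Figure D4:**
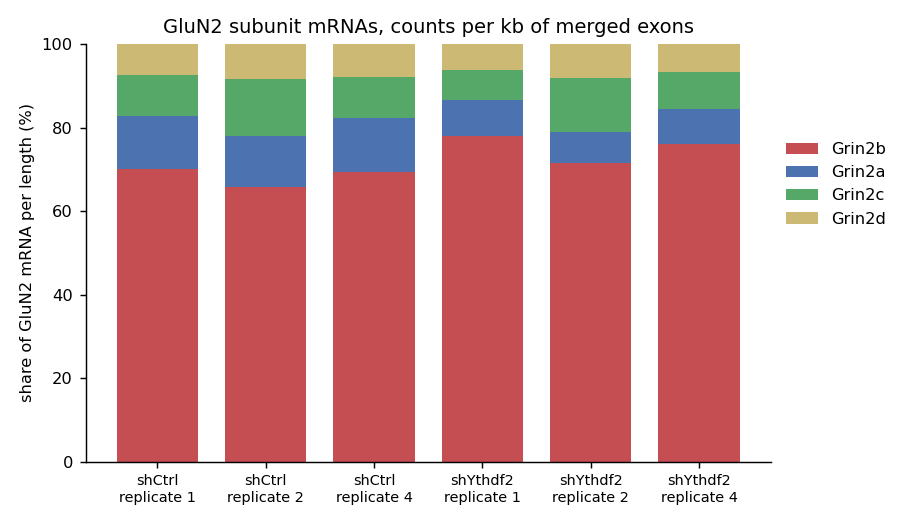
Share of each GluN2 gene in the summed counts per kb of Grin2a to Grin2d (vertical axis, percent) in each of 6 libraries. The Grin2b part is 65.8% to 70.2% in shCtrl and 71.4% to 77.9% after KD, and replicate 2 has the largest Grin2c part of both groups, 13.6% and 13.0%.

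Compared per length, Grin1 was the most abundant subunit mRNA, with 62.2 ± 14.3 RPKM (counts per kb of merged exons, scaled to library size) in shCtrl (SD, n = 3) and 47.7 ± 2.76 after KD, followed by Grin2b with 18.3 ± 1.00 and 28.5 ± 1.96. The other 5 genes were far lower. In shCtrl they followed as Grin2a (3.37 ± 0.23), Grin2c (2.99 ± 0.89), Grin2d (2.13 ± 0.31), Grin3a (1.68 ± 0.90) and Grin3b (1.19 ± 0.48), and each neighbouring pair of these overlapped. After KD, Grin2c (3.66 ± 1.01), Grin2a (3.10 ± 0.28), Grin2d (2.65 ± 0.29) and Grin3a (2.51 ± 0.11) overlapped with their neighbours, and Grin3b (1.03 ± 0.31) lay below them. The order of the low genes depended on the length used: with the longest transcript, Grin3a (mean 2.76) stood above Grin2d (mean 2.62) in shCtrl. With that length the mean of Grin1 was 141 in shCtrl and 108 after KD, beside 18.9 and 29.5 for Grin2b. The spread between libraries was above counting error for the subunit genes, low or high, but by very unlike amounts. For Grin3a it was 53.5% of the mean in shCtrl, where counting alone gives 4.99%, and 4.49% after KD, where counting gives 4.18%. For Grin1 in shCtrl it was 23.0%, where counting gives 0.924%.

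Of 57 genes that work with the NMDA receptor, 56 were tested and 2 fell (0 rose), both immediate-early genes that calcium entry induces. Of all genes tested, 0.36% fell. These were Npas4 (log2 fold change -4.89, SE 0.62) and Nr4a3 (-3.44, SE 0.43), transcription factors with an adjusted p of 0.0430 each by edgeR's quasi-likelihood test. Of the 9 genes of that group, 8 had a lower mean after KD and their median log2 fold change was -3.29, against 0.01 for all genes. The 4 smallest p-values were those of Nr4a3, Npas4, Fos (-2.91, adjusted p = 0.0539) and Nr4a1 (-3.40, adjusted p = 0.0584). Both calls were lost with limma-voom, where 24 of 17214 genes passed. They were also lost with any of the replicate 1 or 4 libraries left out, where 0 of all genes passed. With the replicate block, Npas4 passed (adjusted p = 0.0450 by edgeR's quasi-likelihood test) and Nr4a3 did not (0.0519). In that fit 7 partner genes passed in all, beside 1.35% of all genes. Leaving out shCtrl replicate 2 gave 21 of 56, beside 18.3% of all genes in that fit.

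Among 14 scaffold and trafficking genes, 0 passed the adjusted threshold (3 of 14 at an unadjusted p under 0.05, beside 20.1% of all genes), 9 had a higher and 5 a lower mean, and the median log2 fold change was 0.06. Lin7a, part of the complex that carries GluN2B along microtubules, had a log2 fold change of -0.46 (SE 0.13), and its groups did not overlap. Dlg2 (PSD-93), Dlg3 (SAP102) and Dlg1 (SAP97), which anchor GluN2 subunits at the membrane, had values of 0.46, 0.35 and 0.22. Dlg4 (PSD-95), of the same family, went the other way, at -0.24. The adjusted p of all these genes lay between 0.127 and 0.318 by edgeR's quasi-likelihood test. For Dlg2, as for Grin3a, shCtrl replicate 2 stood apart, with 10905 normalized counts beside 6953 and 6998.

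Of 21 kinases, phosphatases and other calcium signalling partners, 0 passed after adjustment (2 of 21 at an unadjusted p under 0.05, beside 20.1% of all genes), with 10 higher and 11 lower means. Camk2a, the CaMKII subunit that binds GluN2B, had 459, 660 and 540 normalized counts after KD and 212, 358 and 182 in shCtrl, a log2 fold change of 1.14 (SE 0.27). Rasgrf2, a Ras exchange factor activated by calcium, had 8.36, 5.82 and 10.6 against 58.5, 25.2 and 76.9, a log2 fold change of -2.68 (SE 0.50). The groups did not overlap for either gene. The adjusted p was 0.0913 and 0.0585 by edgeR's quasi-likelihood test, and 0.0468 and 0.0450 with the replicate block. Ppp3ca (calcineurin A alpha) was at 0.21 and Nos1 (neuronal nitric oxide synthase) at 1.56, the latter with 3070 normalized counts in shCtrl replicate 2 beside 392 and 405.

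Of the genes that supply or take up the co-agonists, 5 of 6 were tested (Dao was filtered out) and 0 passed (1 of 5 at an unadjusted p under 0.05, beside 20.1% of all genes). Slc1a4, a transporter of serine and alanine, had a log2 fold change of -0.33 (SE 0.11), Slc7a10 (D-serine and alanine exchange) 0.50, Slc6a9 (glycine uptake) 0.18 and Shmt2 (serine to glycine) -0.05. Of 7 transcription factors that are linked to the subunit switch, 0 passed (2 of 7 at an unadjusted p under 0.05, against the same 20.1%), and the median was 0.02. Mef2d, a calcium-regulated factor, had 4430, 4248 and 4541 normalized counts after KD and 10343, 6649 and 10287 in shCtrl, without overlap (log2 fold change -1.05, SE 0.18). Its adjusted p was 0.0527 by edgeR's quasi-likelihood test and 0.0452 with the replicate block. Etv1, an activator of Grin2c in maturing GCs, was at 0.53 (SE 0.29), and replicate 2 was its highest library in both groups, as for Grin2c. Nfib, Nfia and Nfix, nuclear factors I of late GC genes, were at -0.40, 0.30 and -0.19.

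Of 29 genes of GC maturation, 28 were tested (Gli1 was filtered out) and 0 passed by edgeR's quasi-likelihood test (5 at an unadjusted p under 0.05, and 2 by DESeq2 after adjustment). The share of all genes was 20.1% at the unadjusted threshold and 8.88% by DESeq2. Without shCtrl replicate 2 there were 11 of 28, beside 18.3% of all genes in that fit. Of 11 mature GC genes, 7 had a higher and 4 a lower mean, with a median log2 fold change of 0.05. Vsnl1, a neuronal calcium sensor, was at 0.86 (SE 0.31), Calb2 (calretinin) at 0.61, Kcnk9 (the TASK-3 leak channel) at -0.53, Fat2 (a protocadherin of GCs) at -0.23 and Gabra6 at 0.25 (SE 0.52). With the replicate block, Vsnl1 passed (adjusted p = 0.0450 by edgeR's quasi-likelihood test; 0.190 without it). Of 10 immature GC genes, 4 had a higher and 6 a lower mean (median -0.13), led by Barhl1 (-0.61, SE 0.12), Neurod1 (-0.32), Cntn2 (TAG-1, an axonal adhesion molecule, -0.48) and Sox11 (-0.32). Of the 7 progenitor genes tested, 6 had a higher and 1 a lower mean, among them Mki67 (0.68), Atoh1 (0.78) and Top2a (0.76), with Ptch1 at -0.20. In this list 0 genes reached an unadjusted p under 0.05. Mki67, Atoh1 and Top2a had few counts, 12.6 to 77.4 normalized counts per library, and the groups overlapped for Top2a.

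**Figure D5:**
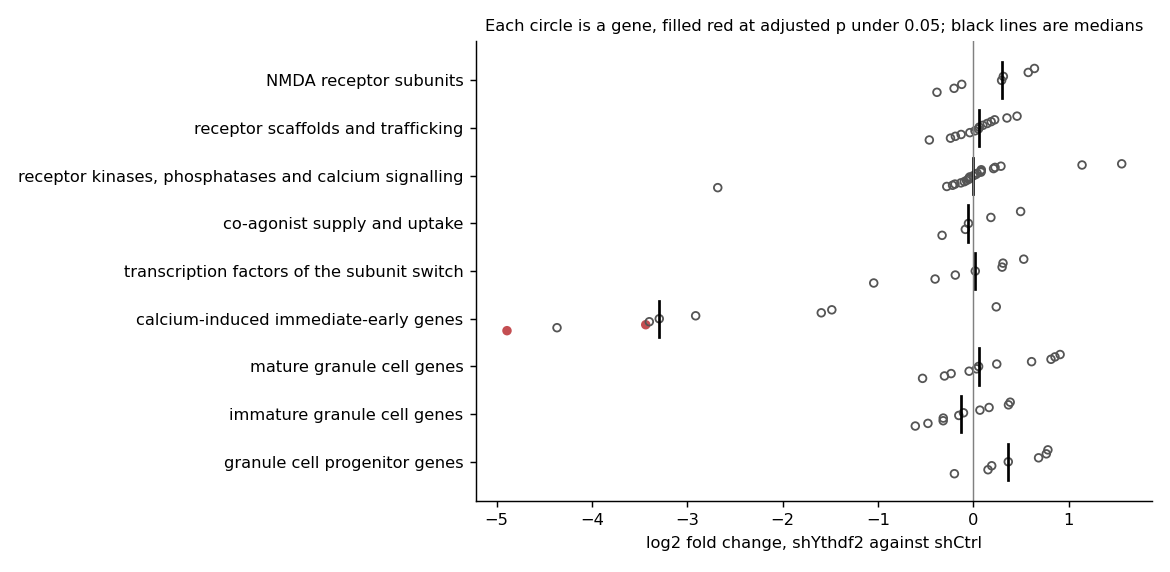
Log2 fold change of shYthdf2 against shCtrl (horizontal axis) for each gene of the subunit, partner and maturation lists (circles, filled where the adjusted p is under 0.05) and the list medians (black lines). Filled circles are Npas4 and Nr4a3 alone, and the medians lie between -0.13 and 0.37 in all lists but the immediate-early genes (-3.29).

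Markers of other cells were detected in every list that was examined, and 0 markers were at 0 in all 6 libraries. Markers of Purkinje cells (5 of 6 tested) summed to 737 to 1098 normalized counts after KD and 937 to 985 in shCtrl, those of unipolar brush cells (4 of 4) to 6755 to 7267 and 8079 to 8333, those of microglia (5 of 6) to 288 to 1072 and 171 to 734, and those of vascular cells and fibroblasts (5 of 6) to 1543 to 4061 and 1367 to 3379. The filter removed Ppp1r17, P2ry12 and Cldn5. The GC gene Neurod1 alone had 14844 to 19266 normalized counts, above the sums of the lists just named. Not all GC genes were high, and Gabra6 had 408 to 1357. The summed oligodendrocyte markers given above reached 16946 normalized counts in shYthdf2 replicate 2, where Neurod1 had 15480. The part of the other cells in the subunit values was not tested.

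The genes most like each subunit gene were taken by the smallest root mean square difference of centred log2 normalized counts over the 6 libraries, among 12561 genes with at least 50 mean normalized counts. Nearest to Grin2b were Rnpc3 (0.02), Sh3bgrl (0.03) and Cpeb4 (0.04), whose log2 fold changes were 0.63, 0.61 and 0.63 and whose adjusted p lay between 0.0496 and 0.0571 by edgeR's quasi-likelihood test. Nearest to Grin1 were Gcn1l1, Sympk and Zfp579 (0.03 to 0.04). Bcl2l11, Hp1bp3 and 1810030O07Rik were nearest to Grin2a, Rwdd2a, Eln and Epm2a to Grin2c, and Il11ra1, Zfp146 and Syndig1 to Grin2d. For Grin3a these were Necab3, Syt4 and Sparcl1, at 0.05 to 0.08, and for Grin3b Gm43328, Amh and Lrrc45, at 0.04 to 0.08. No subunit gene was among the nearest genes of another.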

How the data were processed

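Counts of 6 RNA-seq libraries of cultured GCs (3 shYthdf2, 3 shCtrl) were used. The study's methods state that the authors discarded low-quality, adapter and poly-N reads, used HISAT and TopHat2 for mapping to GRCm38, and obtained gene counts with HTSeq. The submitters' processing notes name Bowtie 0.12.2 and mm9 instead, and the library kit also differs between labels (TruSeq) and methods (NEBNext Ultra). The deposited values are whole-number counts without normalization. Strandedness is not given in the sources used here.

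Genes were named by the GENCODE M21 annotation of GRCm38, which matched 52489 of 53421 genes. edgeR 4.0.16 in R 4.3.3 was run on all genes that passed filterByExpr by group (minimum count 10, minimum total 15; 17214 genes, 99.8% of the counts), with TMM factors, the quasi-likelihood test and Benjamini-Hochberg adjustment, at a threshold of 0.05. Normalized counts are counts scaled by TMM to the mean effective library size, and RPKM values were computed from these with the merged exon length. Differences within replicate numbers used a pseudocount of 0.5. Ratios within libraries were tested by a two-sided exact permutation test over libraries. The tests were also run on simulated data, where DESeq2 made a larger share of false calls than edgeR, limma-voom or the block. The simulated libraries held no difference between replicate numbers, unlike the real ones. They therefore cannot show how the tests or the block do in these data. The depth of 17246821 to 21546595 counts per library limits genes with few counts, and SDs cover counting error and the spread between libraries.

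Replicate numbers come from the library names (1, 2 and 4). Deviations from the group means correlated at 0.251, 0.362 and 0.291 between same-numbered libraries. Between replicate 1 of a group and replicate 4 of the other they correlated at 0.143 and 0.166, and between replicate 2 and either at -0.312 to -0.258. Replicate 2 was thus set apart more clearly than replicates 1 and 4 were from each other. The numbers were taken to pair the libraries, and the block was used as an alternative.

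The alternatives were RLE size factors, no normalization factor, DESeq2 1.42.0, limma-voom (limma 3.58.1), the replicate block, a filter at 10 or more counts in all libraries, only genes at 0 removed, a batch term for replicate 2, each library left out, and both replicate 2 libraries left out. Named genes were the 7 subunits, Ythdf2, the list genes past the threshold, the 4 with the smallest p per list, Etv1, Gabra6, Cntn2, Dlg4 and the 3 nearest genes per subunit. Markers of other cells were summed per list. The members, the lists and the tests were chosen with earlier results of these data known.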

Additional observations from a re-analysis of the deposited data

How the results depend on the processing

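The count of NMDA receptor subunit genes past the adjusted threshold was 0, and 1 (Grin2b) with no normalization factor, DESeq2, no filter, 10 or more counts in all libraries, the replicate block or the batch term for replicate 2. It was 0 to 3 with 1 library left out and 5 without both replicate 2 libraries, where 52.7% of all genes passed (0.604% with all libraries). The count of partner genes was 2, and 10 with DESeq2, 0 with limma-voom, 10 without the filter, 7 with the replicate block, 21 with the batch term, 0 to 21 with 1 library left out and 36 without both replicate 2 libraries. That of maturation genes was 0, and 2 with DESeq2, 1 without the filter, 1 with the replicate block, 14 with the batch term, 0 to 11 with 1 library left out and 23 without both replicate 2 libraries. Of all genes tested, 3799 of 17214 passed with the batch term, 639 of 32277 without the filter and 24 of 17214 with limma-voom. With no normalization factor 108 of 17214 passed, and 131 of 15197 with 10 or more counts in all libraries. The share was 8.88% by DESeq2, 1.35% with the replicate block and 18.3% without shCtrl replicate 2. With a library of replicate 1 or 4 left out, 0 of all genes passed (1986 to 2120 at an unadjusted p under 0.05), so that losses in those fits say nothing about single genes. The cause of the other shifts was not tested.

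Ythdf2 passed with DESeq2 (-0.58, adjusted p = 0.0392), the batch term (-0.56, 0.0465) and without both replicate 2 libraries (-0.32, 0.00124), and was between -0.66 and -0.41 with 1 library left out. Grin3b turned to 0.02 without shYthdf2 replicate 2 (0.0153 before rounding) and to 0.02 without shCtrl replicate 4 (0.0246), and was at -0.50 without shCtrl replicate 2. The other 6 subunit genes kept their direction under all 15 alternatives and the 3 balances under all 9. With the replicate block, Grin2b was at 0.64 (adjusted p = 0.0496), and the balances had a sign-flip p of 0.25, the smallest that 3 pairs allow. Beside Grin2b, it added Camk2a, Rasgrf2, Mef2d, Fos, Fosb, Junb and Vsnl1, lost Nr4a3, and, with the marker gene Gad1 also added, changed the call of no other listed gene. Grin3b, with 41 to 97 counts, is the gene that depth limits most.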
